A study of Homo sapiens with 6 samples.

Results

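Heat shock proteins and DNAJ co-chaperones were followed in RNA-seq of an ovarian cancer cell line and its CHK1 inhibitor-resistant derivative. The genes were defined by symbol, by a rule set with earlier results of these data known. It took every listed gene whose symbol begins with HSPA, HSPB, HSPD, HSPE, HSPH, or HSP90, or with DNAJA, DNAJB, or DNAJC and a numeral. This gave 65 of 12308 genes, namely 10 HSP70 proteins, 3 proteins of the HSP110 type, 3 HSP90 proteins, 4 small heat shock proteins, the 2 subunits of the mitochondrial chaperonin, 36 DNAJ proteins (4 of type A, 9 of type B, and 23 of type C), the exchange factor HSPBP1, and the genes HSPB11 and HSPBAP1, which carry the name without being classical chaperones. The other 4 were HSPE1-MOB4, DNAJC25-GNG10, and HSPB2-C11orf52, which are readthrough transcripts of neighboring genes, and HSP90AA2P, a pseudogene.

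HSP70 proteins bind unfolded stretches of client proteins in a cycle of ATP binding and hydrolysis. DNAJ proteins bring clients to HSP70 and start hydrolysis, and HSP110 proteins release the nucleotide so that the cycle can begin again. HSP90 proteins act on clients at a later stage of folding, many of them kinases (CHK1 among them), and small heat shock proteins hold unfolded proteins without using ATP. The cytosol, the endoplasmic reticulum (ER), and mitochondria each have their own set. Heat shock factor 1 (HSF1) drives the cytosolic set in protein stress, and the unfolded protein response drives the ER set.

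Total RNA came from triplicate cultures of OVCAR5, an ovarian cancer line whose BRCA genes are wild type, and of OVCAR5R, grown from OVCAR5 in rising concentrations of the CHK1 inhibitor prexasertib (Prex) up to 3 µM over 3 to 4 months. OVCAR5R was kept at 2 µM Prex and was free of the drug for 4 days or longer before use, so both lines were measured without Prex. All OVCAR5R libraries came from 1 resistant derivative, and an effect of the selection cannot be told apart from other differences that this line acquired. The only comparison in the design was OVCAR5R against OVCAR5, and it asked here how chaperone transcripts differed between the resistant line and its parent.

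The deposited values, a normalized signal on a linear scale, summed to between 937274 and 1038240 per library. Estimated reads, in units of 1e6, were 41.3, 35.8, and 41.0 in OVCAR5 and 53.6, 55.1, and 50.3 in OVCAR5R. Every OVCAR5R library was thus deeper than every OVCAR5 library, and depth cannot be told apart from the line. The chaperones took 1.52% to 2.26% of the signal. KRT8 and KRT18, keratins of epithelial cells, were present in every library. OVCAR5 replicate 2 stood apart, with EPCAM at 597 against 11.9 to 31.7 in the other libraries and KRT19 at 1341 against 3.09 to 10.7. Its Pearson correlation with the other libraries across genes was 0.850 to 0.898, against 0.921 to 0.963 among those. Of 9 epithelial markers, 7 were listed and 6 tested, and the 7 summed to 2265 to 16856 in OVCAR5 and to 3542 to 4721 in OVCAR5R. The high sum was that of OVCAR5 replicate 2, and its part in the chaperone values was not tested beyond leaving that library out. Single markers differed between the lines. PAX8 (8.38 to 11.4 in OVCAR5, 4.38 to 5.66 in OVCAR5R) and KRT19 were lower in OVCAR5R without overlap (33.3% of the 6, against 16.6% of all genes). KRT7 had 85.8, 939, and 92.7 in OVCAR5 and 431, 465, and 583 in OVCAR5R. Of the 6, 1 was higher and 5 lower in OVCAR5R, but 4 were higher and 2 lower without OVCAR5 replicate 2. WT1 was listed at under 1 in every library. Of the other cell type markers, 2 of 6 fibroblast, 1 of 5 leukocyte, and 0 of 4 endothelial genes were listed. The main results are therefore also given without OVCAR5 replicate 2.

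Promoters of these genes were searched for the elements of the 2 stress pathways, and the matched stretches are shown for the genes that the results turn on. RefSeq promoters (GRCh38.p14) were found for 57 of the chaperones, in 77 windows of 250 bases before a transcript start, some of which overlap. Heat shock elements, the sites of HSF1, were searched as GAANNTTC and TTCNNGAA on both strands, the forms of 2 units. A match of either form was in 17 of the 77 windows (22.1%) and in 11.6% of 35116 windows of all genes. The 3-unit form, which is GAANNTTC followed by NNGAA and contains both others, was in 6 (7.79%) against 0.441% of all windows. These belonged to HSP90AA1, HSP90AB1, HSPA8, HSPA6, HSPD1, and DNAJB6. The 30 bases around each match are printed 5′ to 3′ on the strand of the gene, with the match in capitals. HSPB8, HSPB1, and HSPA1A hold the 2-unit form GAANNTTC, and the others hold the 3-unit form, in either orientation. The capitals of HSPD1 join 2 overlapping 3-unit matches of opposite orientation. In GENCODE 29 the stretches of HSPB8, HSPA8, HSP90AA1, and HSPD1 overlap annotated exons of the same gene (that of HSPD1 also an exon of its neighbor HSPE1), and those of HSPB1 and HSPA1A overlap none.
HSPB8 (chr12:119178832-119178861, + strand): tcatcacctccGAATATTCctgtgacagga
HSPB1 (chr7:76302480-76302509, + strand): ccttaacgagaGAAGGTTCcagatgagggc
HSPA1A (chr6:31815426-31815455, + strand): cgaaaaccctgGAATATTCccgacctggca
HSPA8, upstream match (chr11:123062345-123062374, - strand): gcgagcttGAAAGTTCCAGAAcgctgcggt
HSPA8, downstream match (chr11:123062170-123062199, - strand): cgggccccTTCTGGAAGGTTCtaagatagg
HSP90AA1 (chr14:102087111-102087140, - strand): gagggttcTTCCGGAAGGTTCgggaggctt
HSPD1 (chr2:197500061-197500090, - strand): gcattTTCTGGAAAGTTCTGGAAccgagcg

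The ER stress element, CCAAT and CCACG with 9 bases of any kind between them, was searched on both strands. It was in 0.0740% of all windows and in 2 of the 77, those of HSPA5 and HSP90B1, both chaperones of the ER. HSP90B1 holds it in both orientations, in stretches that overlap its own annotated exons in GENCODE 29 (the one farther from the start also an exon of TTC41P), while that of HSPA5 overlaps none.
HSPA5 (chr9:125241385-125241414, - strand): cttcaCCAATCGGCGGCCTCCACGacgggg
HSP90B1, upstream match (chr12:103930211-103930240, + strand): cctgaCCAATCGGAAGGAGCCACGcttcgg
HSP90B1, downstream match (chr12:103930316-103930345, + strand): gggtgCGTGGTGCGGCGCGATTGGtgggtt

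None of the chaperones passed the test. Of the 65 genes, 62 reached a value of 1 in 3 or more libraries and were tested by limma on log2(value + 1) together with all 11766 such genes. The adjusted p (Benjamini-Hochberg over all genes tested) was under 0.05 for 0 of the 62, where 0.119% of all genes passed, and the lowest adjusted p from limma was 0.309, for HSPB8. At an unadjusted p under 0.05 there were 2 (HSPB8 and DNAJC15), or 3.23%, against 10.4% of all genes. By their means 34 were higher in OVCAR5R (54.8%, against 49.2% of all genes) and 28 were lower, with a median log2 fold change of 0.02 against -0.01 for all genes. Without OVCAR5 replicate 2, 0 passed, 4 had an unadjusted p under 0.05 (10.8% of all genes), and the median was 0.01. In bulk RNA of a culture, fewer cells with a transcript and less of it per cell cannot be told apart.

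The intervals show how large a change these libraries could have missed. For 41 of the 62 genes the 95% interval of the log2 fold change lay within -1 and 1, so that a doubling and a halving both lay outside it. The same held for 6993 of all 11766 genes tested, so it is not particular to the chaperones. A difference of 1 or more in either direction was estimated for 2 genes, HSPB8 and HSPA6 (5.97% of all genes). The median SD between libraries on the log2 scale was 0.33 in OVCAR5 and 0.21 in OVCAR5R, against 0.34 and 0.25 for all genes.

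**Figure D1:**
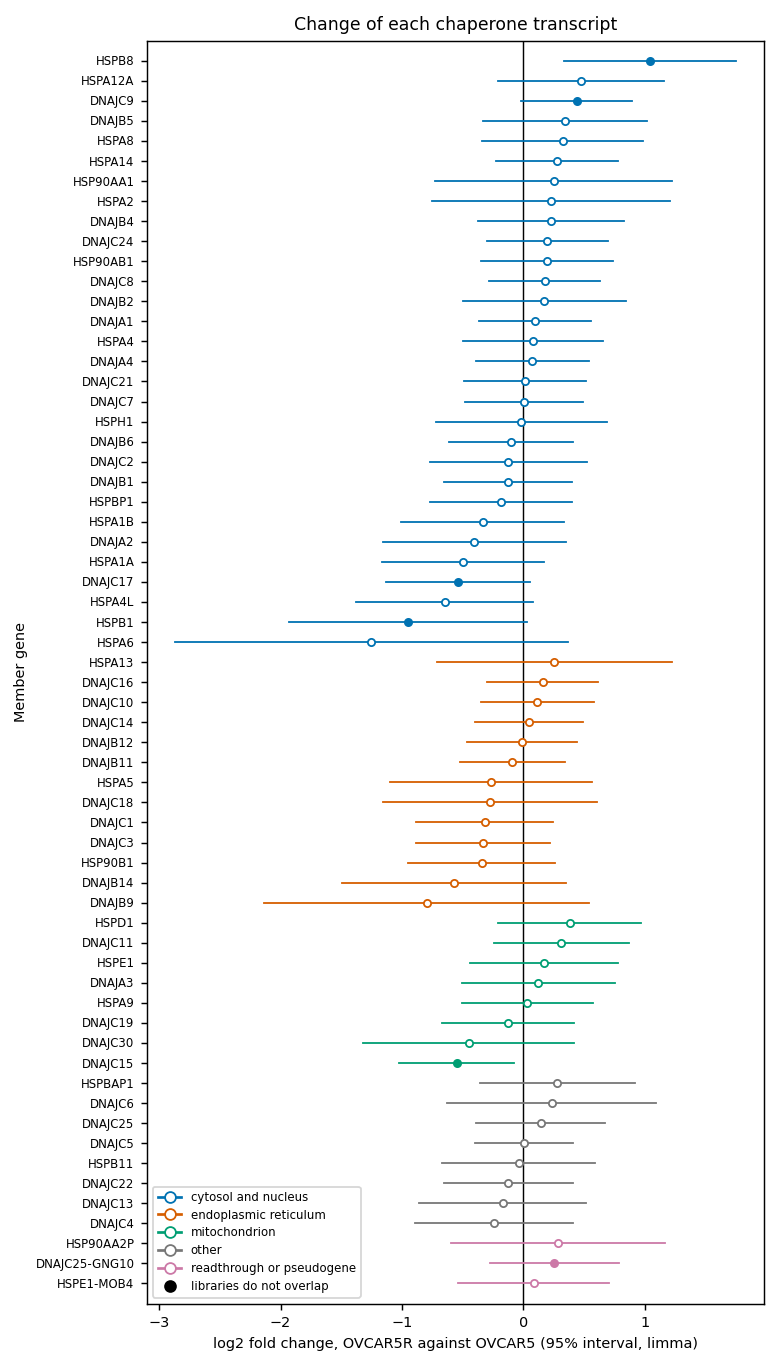
Log2 fold change of OVCAR5R against OVCAR5 (x axis) for the 62 chaperone genes tested (y axis, grouped by compartment in color), with the 95% interval from limma as bars. Filled points mark the 6 genes whose OVCAR5R and OVCAR5 libraries do not overlap, and HSPB8 and DNAJC15 are the genes whose intervals leave out 0.

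The 6 genes without overlap of the libraries were HSPB8, DNAJC9, and DNAJC25-GNG10, higher in OVCAR5R, and HSPB1, DNAJC15, and DNAJC17, lower in OVCAR5R. That is 9.68% of the chaperones tested against 16.6% of all genes, of which 8.4% were higher and 8.18% lower. Without OVCAR5 replicate 2 there were 10 (27.4% of all genes), 5 higher (13.8% of all genes) and 5 lower (13.7% of all genes). For any gene without overlap, an exact two-sided permutation test gives p = 0.1, the smallest p that 3 against 3 libraries can give. For the 6 genes this value was therefore fixed by how they were chosen and adds nothing.

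HSPB8 is a small heat shock protein that works with BAG3 and HSP70 to send misfolded proteins to autophagy. Here and for the genes that follow, the libraries are given in the order of their replicate numbers, and the labels do not say whether these pair the lines. HSPB8 had 8.89, 9.27, and 5.93 in OVCAR5 and 12.3, 23.9, and 17.6 in OVCAR5R. All OVCAR5R libraries were above all OVCAR5 libraries, with replicate 2 the highest. The means were 8.03 ± 1.83 and 18.0 ± 5.79 (SD, n = 3 each). The difference on the log2 scale was 1.05 (standard error, SE, 0.31, unadjusted p = 0.00927, adjusted p = 0.309 from limma), and it lay between 0.83 and 1.28 with any 1 library left out. BAG3, its partner, was the other way around, with 135, 105, and 150.1 in OVCAR5 and 87.3, 88.5, and 85.5 in OVCAR5R. Its libraries did not overlap either (log2 fold change -0.56, SE 0.20, adjusted p = 0.401 from limma). BAG3 was picked for this after its values were seen.

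HSPB1, the widely expressed small heat shock protein HSP27, had 169, 334, and 157 in OVCAR5 and 58.2, 141, and 148 in OVCAR5R. The lowest OVCAR5 library and the highest OVCAR5R library were close to each other, and both ends of the range were set by single libraries, OVCAR5 replicate 2 and OVCAR5R replicate 1. The log2 fold change was -0.95 (SE 0.43, adjusted p = 0.489 from limma). It was -0.61 without OVCAR5 replicate 2 and -0.52 without OVCAR5R replicate 1. The 2 small heat shock proteins that could be tested thus had estimates of opposite sign. HSPB6 was listed at 0.195 to 2.09 and HSPB2 at 0 to 0.0932, and neither entered the test. HSPB2-C11orf52, at 0 to 0.0641, was the third gene left out.

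DNAJC15 is a DNAJ protein of the mitochondrial inner membrane that takes part in protein import. It had 46.7, 51.1, and 59.3 in OVCAR5 and 40.9, 34.7, and 31.0 in OVCAR5R, so that every OVCAR5R library was lower by a modest step. The log2 fold change was -0.55 (SE 0.21, unadjusted p = 0.0287, adjusted p = 0.419 from limma). DNAJC17, found with splicing factors in the nucleus, had 18.1, 29.01, and 20.6 against 13.5, 18.0, and 13.6. Here the gap between the lines was narrow, since the highest OVCAR5R library was at 18.0 and the lowest OVCAR5 library at 18.1 (log2 fold change -0.54, SE 0.26). Under quantile normalization and with a common upper quartile its libraries overlapped.

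DNAJC9 hands histones H3 and H4 to HSP70 proteins and is tied to chromatin assembly. It had 54.4, 60.1, and 74.8 in OVCAR5 and 88.3, 80.8, and 86.6 in OVCAR5R. The OVCAR5R libraries were tight, and the OVCAR5 libraries were more spread and all lower (log2 fold change 0.44, SE 0.20, adjusted p = 0.491 from limma). DNAJC25-GNG10 lay between 7.16 and 7.81 in OVCAR5 and between 8.63 and 9.53 in OVCAR5R. It shares exons with DNAJC25, whose log2 fold change was 0.14, and it was listed at 78.2% to 109% of DNAJC25, so how reads were divided between both is uncertain.

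**Figure D2:**
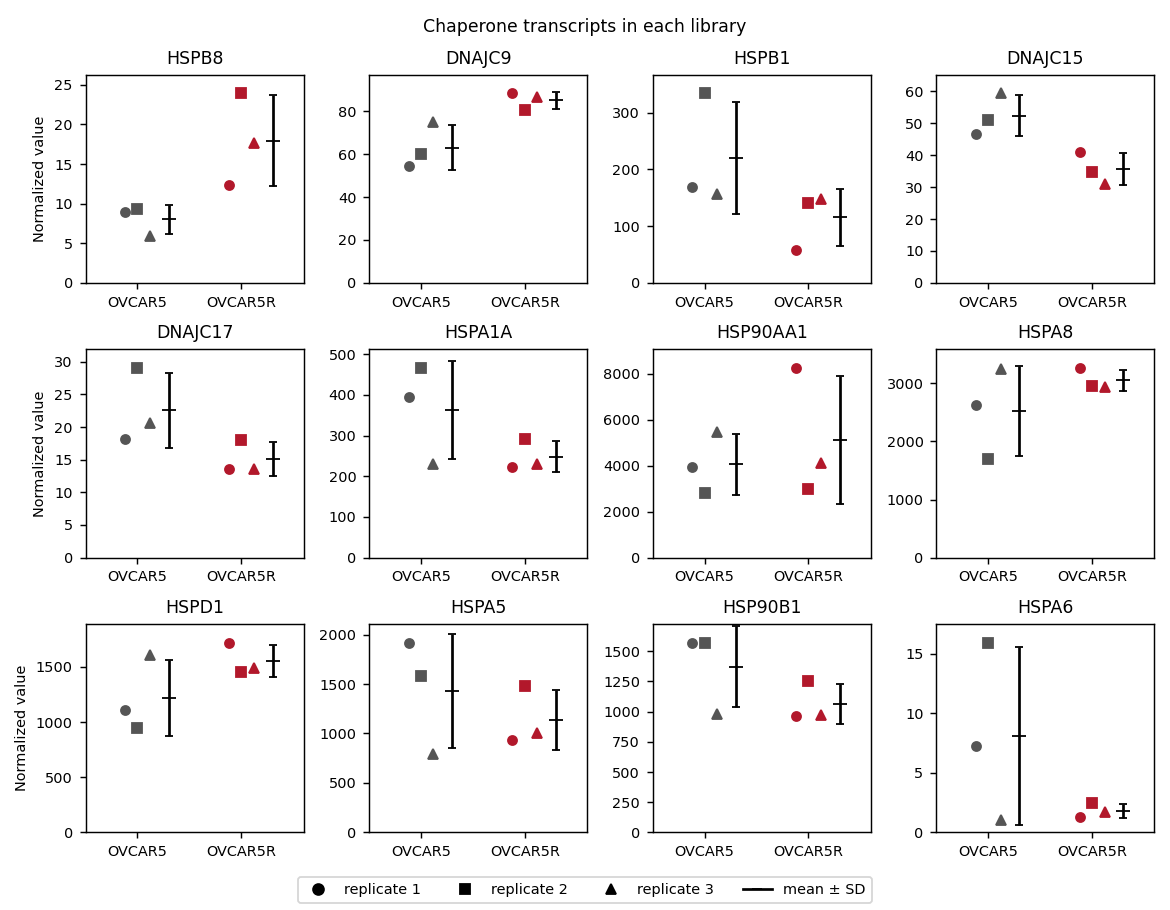
Normalized value (y axis, linear, from 0) of 12 chaperone genes in each library of OVCAR5 (gray) and OVCAR5R (red), with the mean ± SD of the 3 libraries as a black bar. HSPB8, DNAJC9, HSPB1, DNAJC15, and DNAJC17 show no overlap between the lines, while HSPA1A, HSP90AA1, HSPA8, HSPD1, HSPA5, HSP90B1, and HSPA6 do overlap.

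The cytosolic and nuclear set held 32 genes, of which 30 were tested, and 18 were higher in OVCAR5R with a median log2 fold change of 0.08. Per kb of transcript, HSP90AA1 was at the top in both lines, with a mean level of 1206 in OVCAR5 and 1516 in OVCAR5R, followed by HSPA8 at 1025 and 1239 and HSP90AB1 at 685 and 779. On this scale HSP90AA1 lay between 831 and 1616 in OVCAR5 and between 881 and 2441 in OVCAR5R, which overlaps the range of HSPA8 (688 to 1324 over all libraries), so the order of these 2 does not stand beyond their spread. Within a library, HSP90AA1 was above HSPA8 except in OVCAR5R replicate 2 (881 against 1202). The range of HSP90AB1 (593 to 862) also overlapped that of HSPA8, through OVCAR5 replicate 2. Within every library, however, HSPA8 was the higher of the pair (688 against 593 in OVCAR5 replicate 2).

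HSPA8, the constitutive HSP70 known as HSC70, had 2634, 1696, and 3245 in OVCAR5 and 3261, 2960.3, and 2935 in OVCAR5R. OVCAR5 replicate 2 was low, and OVCAR5 replicate 3 was as high as the OVCAR5R libraries. The log2 fold change was 0.32 (SE 0.29) and 0.06 without OVCAR5 replicate 2. HSP90AA1, the inducible HSP90, had 3952, 2809, and 5460.3 in OVCAR5 and 8249.8, 2977, and 4141 in OVCAR5R. OVCAR5R replicate 1 was the highest library, and OVCAR5R replicate 2 was near the lowest. HSP90AB1, the constitutive HSP90, was steadier, with 1684, 1585, and 2223 against 2128, 2304, and 1815 (log2 fold change 0.19, SE 0.24). Its interval reached from -0.35 to 0.74.

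The inducible HSP70 genes HSPA1A and HSPA1B, which are near-identical neighbors on chromosome 6, did not stand above the parent line. HSPA1A had 395, 465, and 229.8 in OVCAR5 and 223, 293, and 229 in OVCAR5R. The low value in OVCAR5 replicate 3 was at the level of the OVCAR5R libraries (log2 fold change -0.50, SE 0.29, adjusted p = 0.589 from limma). HSPA1B was listed at 70.7% to 85.0% of HSPA1A in the 6 libraries, and the split of reads between these copies is uncertain (log2 fold change -0.34). HSPA6, an HSP70 gene that is nearly silent without strong stress, had 7.25, 15.9, and 1.04 in OVCAR5 and 1.28, 2.46, and 1.67 in OVCAR5R. It had the lowest log2 fold change of all the chaperones at -1.25 (SE 0.70, adjusted p = 0.576 from limma), but OVCAR5 replicate 3 was below every OVCAR5R library. Without OVCAR5 replicate 2 the log2 fold change of HSPA6 was -0.57, and without OVCAR5 replicate 3 it was -2.10 (adjusted p = 0.144 from limma).

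Among the partners of cytosolic HSP70, DNAJA1 (log2 fold change 0.10, SE 0.20) and DNAJB1 (-0.12, SE 0.23) were close to equal in both lines. DNAJB1, the main DNAJ partner of HSPA1A in heat stress, had 292, 310.3, and 218 against 251, 294, and 207. The exchange factors HSPA4 (0.08, SE 0.25) and HSPH1 (-0.02, SE 0.31) also had estimates near 0. HSPH1 went from 171 to 402 among the OVCAR5 libraries, while the OVCAR5R libraries lay between 245 and 259. The pseudogene HSP90AA2P was listed at 0.107% to 0.122% of HSP90AA1 in every library, and how reads were divided between both is uncertain. Other members of the cytosolic and nuclear set (HSPA12A, HSPA14, DNAJA4, DNAJB2, DNAJB4, DNAJB5, DNAJC7, DNAJC8, DNAJC21, DNAJC24, and HSPBP1) had log2 fold changes from -0.19 for HSPBP1, an exchange factor of HSP70, to 0.48 for HSPA12A, a distant HSP70 relative.

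**Figure D3:**
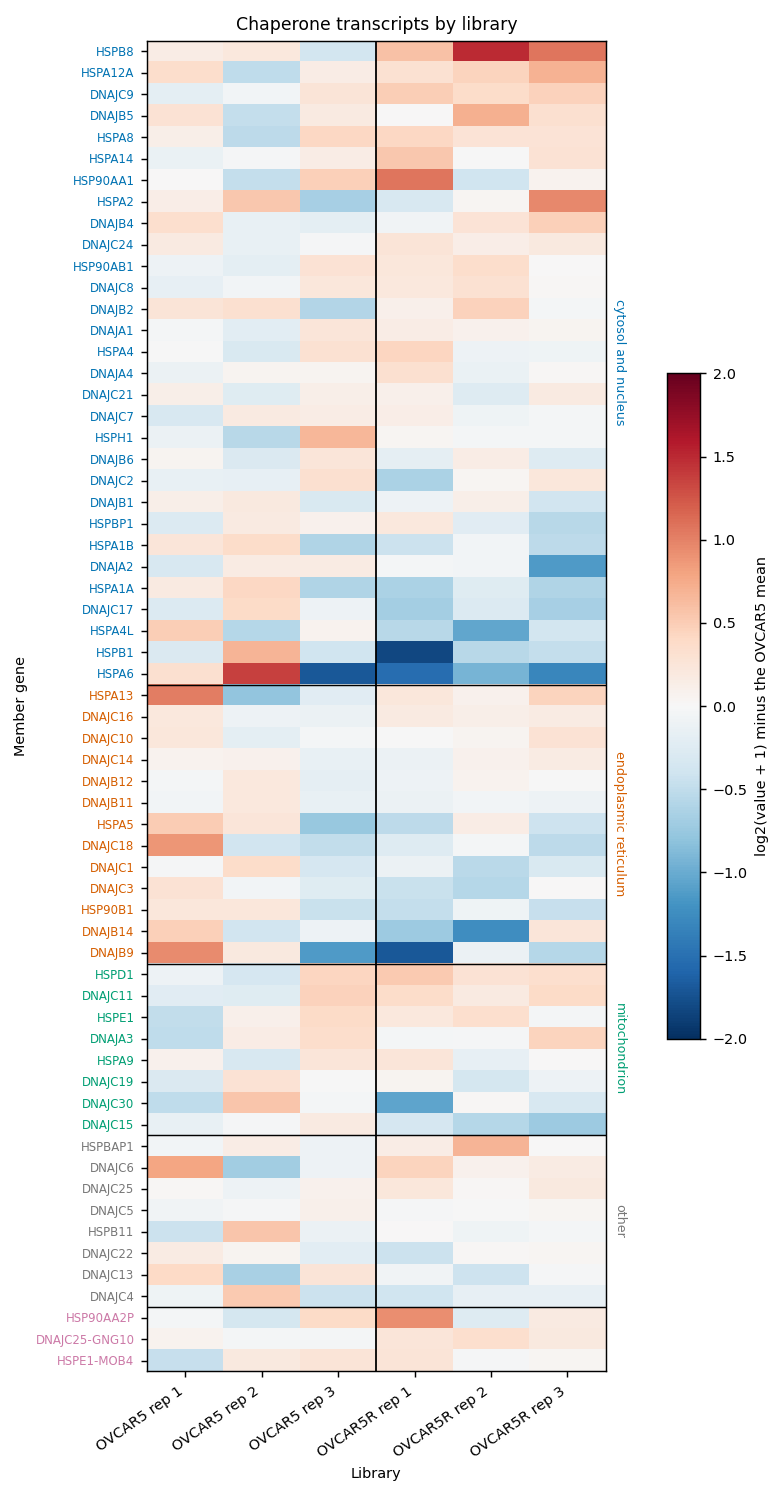
Log2(value + 1) of each chaperone gene tested (rows, grouped by compartment and ordered by fold change) in each library (columns), as the difference from the mean of the 3 OVCAR5 libraries, in color from -2 (blue) to 2 (red). Within OVCAR5, several ER genes are high in replicate 1 and low in replicate 3, among them DNAJB9 and HSPA5, and 10 of the 13 ER genes have their lowest OVCAR5 value in replicate 3.

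The ER set had 13 genes, all tested. Of these, 4 were higher and 9 lower in OVCAR5R, and the median log2 fold change was -0.27, against -0.01 for all genes. None passed an adjusted p of 0.05 or an unadjusted p of 0.05, and none was free of overlap. The shares of all genes were 0.119%, 10.4%, and 16.6%. With 13 genes, counts of 0 are not read as a result about the ER set. The ER set was uneven within OVCAR5. Relative to the OVCAR5 mean, the libraries had medians over the 13 genes of 0.23, 0.08, and -0.23 (OVCAR5) and of -0.12, -0.04, and -0.02 (OVCAR5R). OVCAR5 replicate 3 was thus the lowest of all 6 libraries. The median log2 fold change was -0.46 without OVCAR5 replicate 3, -0.14 without replicate 2, and -0.03 without replicate 1.

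HSPA5, the ER HSP70 known as BiP, had 1916, 1577, and 796 in OVCAR5 and 931, 1481, and 1000.4 in OVCAR5R (log2 fold change -0.27, SE 0.36, adjusted p = 0.833 from limma). HSP90B1, the ER HSP90 known as GRP94, had 1569, 1567, and 984 against 967, 1258, and 975 (log2 fold change -0.34, SE 0.26, adjusted p = 0.683 from limma). For both genes, the same 3 libraries were the lowest, namely OVCAR5 replicate 3 and OVCAR5R replicates 1 and 3. OVCAR5R replicate 2 came next, and OVCAR5 replicates 1 and 2 were the highest. The log2 fold change of HSPA5 was -0.64 without OVCAR5 replicate 3 and -0.01 without OVCAR5 replicate 1, and that of HSP90B1 was -0.57 without OVCAR5 replicate 3.

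DNAJB9, a BiP co-chaperone that restrains the stress sensor IRE1, was the lowest of the ER set. It had 33.2, 19.4, and 7.14 in OVCAR5 and 4.51, 15.4, and 11.0 in OVCAR5R (log2 fold change -0.80, SE 0.58). OVCAR5R replicate 1 and OVCAR5 replicate 3 were the lowest, so the lines overlapped, and the log2 fold change was -0.33 without OVCAR5 replicate 1 and -1.36 without OVCAR5 replicate 3. DNAJC3, which inhibits the stress kinase PERK, had a log2 fold change of -0.33 (SE 0.24), and DNAJB11, a soluble BiP co-chaperone, -0.09 (SE 0.19). HSPA13, an HSP70-like ER protein, was the highest of the set at 0.25 (SE 0.42). It ranged from 34.2 to 121 in OVCAR5 around the OVCAR5R libraries at 63.0 to 81.7. DNAJC1, DNAJC10, DNAJC14, DNAJC16, DNAJC18, and DNAJB12, other DNAJ proteins of the ER, lay between -0.32 for DNAJC1 and 0.16 for DNAJC16.

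Paralogs of the 2 compartments were also set against each other within each library, which takes out any scaling of the library. HSPA5 amounted to 72.7%, 93.0%, and 24.5% of HSPA8 in OVCAR5 and to 28.6%, 50.0%, and 34.1% in OVCAR5R. HSP90B1 amounted to 93.2%, 98.8%, and 44.3% of HSP90AB1 in OVCAR5 and to 45.4%, 54.6%, and 53.7% in OVCAR5R. Both ratios placed OVCAR5 replicate 3 below all OVCAR5R libraries, and OVCAR5 replicates 1 and 2 above them. The ratios therefore overlapped between the lines. They are ratios of deposited values without correction for transcript length.

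**Figure D4:**
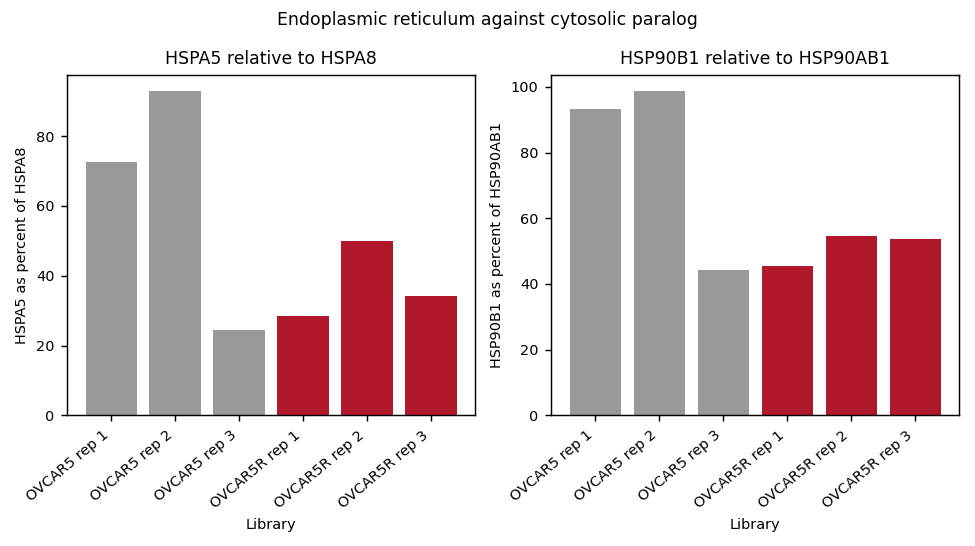
HSPA5 as a percent of HSPA8 (left) and HSP90B1 as a percent of HSP90AB1 (right) in each library (x axis), with OVCAR5 in gray, OVCAR5R in red, and the y axis from 0. OVCAR5 replicates 1 and 2 reach 72.7% to 98.8%, whereas OVCAR5 replicate 3 lies at 24.5% and 44.3%, below the OVCAR5R libraries in both panels.

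The mitochondrial set had 8 genes, of which 5 were higher and 3 lower in OVCAR5R, with a median log2 fold change of 0.08 (-0.10 without OVCAR5 replicate 1 and 0.23 without OVCAR5 replicate 3). HSPD1 and HSPE1 form the HSP60 and HSP10 rings of the chaperonin. HSPD1 had 1113, 942, and 1605 in OVCAR5 and 1718, 1450.5, and 1495 in OVCAR5R (log2 fold change 0.38, SE 0.26, the highest of the set). As for HSPA8, OVCAR5 replicates 1 and 2 were lower than all OVCAR5R libraries and OVCAR5 replicate 3 was among them. HSPE1 had 181, 275, and 335 against 296, 324, and 249 (log2 fold change 0.17, SE 0.26).

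HSPA9, the mitochondrial HSP70 known as mortalin, had a log2 fold change of 0.03 (SE 0.23), and its values lay between 606 and 896 in OVCAR5 and between 677 and 901 in OVCAR5R. Its co-chaperone DNAJA3 stood at 0.12 (SE 0.27). DNAJC11, at the mitochondrial membranes, stood at 0.31 (SE 0.24). DNAJC19, a part of the import motor at the inner membrane, stood at -0.13 (SE 0.24). With DNAJC15 at -0.55, the 2 DNAJ proteins of the import machinery both had negative estimates, and only the libraries of DNAJC15 were free of overlap. Relative to the OVCAR5 mean, the mitochondrial set had medians of -0.25, 0.04, and 0.30 in the OVCAR5 libraries, the reverse order of the ER set, and of 0.14, -0.004, and -0.01 in OVCAR5R. No mitochondrial gene had its lowest OVCAR5 value in replicate 3.

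The 8 genes outside these compartments (DNAJC4, DNAJC5, DNAJC6, DNAJC13, DNAJC22, DNAJC25, HSPB11, and HSPBAP1) had log2 fold changes between -0.24 for DNAJC4 and 0.28 for HSPBAP1, with 4 higher and 4 lower. HSPE1-MOB4, listed at 3.88% to 5.41% of HSPE1, stood at 0.09 and HSP90AA2P at 0.29, and reads shared with HSPE1 and HSP90AA1 make both uncertain.

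Genes that act with the chaperones were counted from lists chosen by function. None of these genes passed an adjusted p of 0.05 (0.119% of all genes). Of 22 heat shock factors and cytosolic co-chaperones tested, 15 were higher in OVCAR5R (median log2 fold change 0.10), from ST13 at -0.56 to FKBP4 at 0.51, and HSF1 itself stood at 0.08 (SE 0.24). FKBP4, an HSP90 co-chaperone of steroid receptors, had 148, 153, and 244 in OVCAR5 and 238, 248, and 276 in OVCAR5R. ST13, which links HSP70 to HSP90, had 221, 226, and 232 in OVCAR5 and 132, 136, and 198 in OVCAR5R, with no overlap (SE 0.22, adjusted p = 0.426 from limma). In this list 2 genes were higher and 3 lower without overlap, which is 22.7% of its 22 genes against 16.6% of all genes.

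Of 21 ER folding and unfolded protein response genes, 3 were higher and 18 lower in OVCAR5R, with a median of -0.24. None was free of overlap, against 16.6% of all genes. The range ran from HERPUD1, an ER degradation factor, at -1.20 (SE 0.67) to the stress sensor ATF6 at 0.23. XBP1, named after its values were seen, stood at -1.13 (SE 0.40, unadjusted p = 0.0217, adjusted p = 0.391 from limma). It lay between -1.50 and -0.78 with any 1 library left out. At this unadjusted level it was alone in the list (4.76% of the 21, against 10.4% of all genes). HYOU1, the large exchange factor for BiP, had 682, 544, and 349 in OVCAR5 and 385, 484, and 422 in OVCAR5R (log2 fold change -0.24, SE 0.28, and -0.51 to -0.02 with 1 library left out). The list again had its lowest median in OVCAR5 replicate 3, at -0.41 from the OVCAR5 mean, against -0.39, -0.20, and -0.23 in OVCAR5R. As for the ER chaperones, the medians of all OVCAR5R libraries were below those of OVCAR5 replicates 1 and 2 and above that of OVCAR5 replicate 3.

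Of 14 mitochondrial partners and proteases, 7 were higher and 7 lower (median -0.01), from SPG7 at -0.55 to AFG3L2 at 0.52, both subunits of the same inner membrane protease. Without overlap were AFG3L2 and CLPB, higher in OVCAR5R, and LONP1, lower (21.4% of the 14, against 16.6% of all genes), and CLPB and LONP1 are named here after their values were seen. TRAP1, the mitochondrial HSP90, stood at 0.15 (SE 0.29). Of 14 subunits of the cytosolic chaperonin TRiC and of prefoldin, 12 were higher and 2 lower, with a median of 0.18, from PFDN5 at -0.15 to CCT6A at 0.42. Only VBP1, a prefoldin subunit named after its values were seen, was free of overlap (7.14% of the 14, against 16.6% of all genes). Relative to the OVCAR5 mean, the median of TRiC and prefoldin was -0.23, -0.11, and 0.29 in OVCAR5 and 0.43, 0.25, and 0.04 in OVCAR5R.

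Several chaperone genes lie where neighboring genes were shifted together, on positions from GENCODE 29 (GRCh38, the hg38 build named in the submitters' processing notes). For 61 tested chaperones with a position, the median log2 deviation of all tested genes within 10 Mb from the OVCAR5 mean was taken in each library. For 9 of them it reached 0.5 in size in at least 1 OVCAR5R library, and for 0 in an OVCAR5 library, where it ran from -0.35 to 0.34. The OVCAR5 libraries are measured from their own mean, which makes their deviations smaller by construction, so the 9 and the 0 cannot be compared. The 52 others had a median log2 fold change of 0.08. The share of all tested genes with such neighbors was not taken, so 9 of 61 is not read as a trait of the chaperones. These 9 genes are named here after their values were seen.

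Of the 9, 5 lie on chromosome 7. In OVCAR5R replicate 1 the other 545 genes of chromosome 7 had a median of -0.62, against 0.02 in both other OVCAR5R libraries. The neighbors of HSPB1 (chr7:76302544-76304295) stood at -1.01, -0.18, and 0.02 in the OVCAR5R libraries, and HSPB1 itself was lowest in replicate 1. DNAJB9, DNAJC30 (a mitochondrial DNAJ protein), and DNAJC2 (a DNAJ protein at the ribosome) were also lowest of OVCAR5R in replicate 1, where their neighbors stood at -0.80, -0.86, and -0.81. DNAJB6, which suppresses protein aggregation, had neighbors at -0.77 in this library and was not the lowest there. The part of the neighborhood in these values was not tested beyond leaving the library out.

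On chromosome 4, the neighbors of HSPA4L, an HSP110-type protein (chr4:127781821-127840733), were lower in all OVCAR5R libraries, at -0.82, -0.83, and -0.77, and HSPA4L had a log2 fold change of -0.65 (SE 0.32). DNAJB14, an ER membrane DNAJ protein on the same chromosome (chr4:99896248-99946726), had neighbors at -0.72, -0.82, and -0.56 and a log2 fold change of -0.57 (SE 0.40). DNAJA2, a cytosolic partner of HSPA8 on chromosome 16, had 104.9, 104, and 48.7 in OVCAR5R, and its neighbors stood at -0.11, 0.03, and -1.01 (log2 fold change of DNAJA2 -0.40, and -0.04 without OVCAR5R replicate 3). Its low value and that of its neighbors thus fell in the same library. HSPA2, an HSP70 protein abundant in testis, lies on chromosome 14 with neighbors at 0.41, 0.54, and 0.77, and its log2 fold change was 0.23 (SE 0.43). HSP90AA1, on the same chromosome, stayed under the cut of 0.5, with neighbors at 0.40, -0.47, and -0.08 in the OVCAR5R libraries. Its own deviations there were 1.07, -0.40, and 0.08, and the part of the neighborhood in them was not tested. HSPB8 (chr12:119178642-119221131) had neighbors at 0.06, 0.03, and 0.05, and its value was high in all OVCAR5R libraries.

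**Figure D5:**
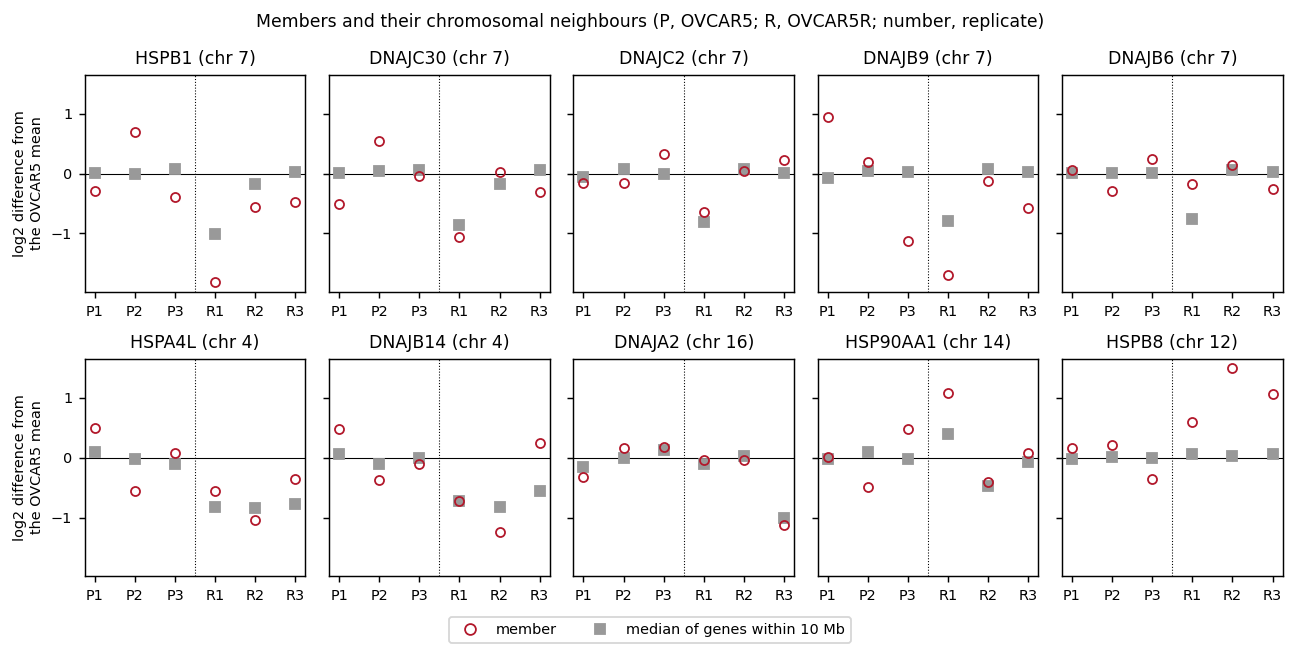
Log2 difference from the OVCAR5 mean (y axis) of 10 chaperone genes (open red circles) and of the median gene within 10 Mb of each (gray squares) in OVCAR5 (P1 to P3) and OVCAR5R (R1 to R3). The 5 genes on chromosome 7 have neighbors at -0.77 to -1.01 in R1, and HSPB8 has neighbors near 0 in every library.

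Set beside the promoter matches printed above, the genes with a heat shock element had estimates of both signs. Of the 17 genes with a 2-unit match, 16 were tested, and 8 were higher in OVCAR5R, with a median log2 fold change of -0.01, from -1.25 for HSPA6 to 1.05 for HSPB8. The 40 tested genes without a match had a median of 0.02. HSPB8 and HSPA1A, whose matches have the same 8 letters, had estimates of 1.05 and -0.50. The 6 genes with a 3-unit match had a median of 0.22, with 4 higher, from -1.25 for HSPA6 to 0.38 for HSPD1. The 50 tested genes without this form had a median of 0.01, with 27 higher.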

How the data were processed

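Total RNA of 3 OVCAR5 and 3 OVCAR5R cultures was sequenced, and samples were grouped by the cell line in their labels. The authors deposited 1 table of a normalized signal on a linear scale, which their methods call quartile normalized. The aligner and counter are not given in the sources used here, and the submitters' processing notes name the build hg38. The low values come in steps, taken as the worth of an estimated read, but only 71.8% to 75.8% of them were whole steps within 0.01, so no test for counts was run. The signal is not corrected for length, and levels per kb used the principal transcript in GENCODE 29.

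A row present in 2 identical copies was kept once (12309 rows, 12308 different). Values were taken as log2(value + 1), on which fold changes of low genes are understated. Genes that reached 1 in 3 or more libraries were tested by limma 3.58.1 in R 4.3.3 (lmFit, eBayes with trend, no covariates), two-sided, with Benjamini-Hochberg adjustment over all 11766 genes. The code was tested on simulated data. The labels do not say whether cultures were independent, so the p-values measure only the spread between these samples.

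The members, compartments, and lists were chosen with earlier results of these data known. The genes named were 20 fixed chaperones, genes without overlap of the libraries (up to 8 per direction), the highest and lowest of each compartment and list, and HSF1, TRAP1, and HYOU1. Alternatives were quantile normalization, a common upper quartile, limma without trend, other filters, a pseudocount of 0.1, a replicate block, and each library left out. Protein sequences were not used here.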

Additional observations from a re-analysis of the deposited data

How the results depend on the processing

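No chaperone passed an adjusted p of 0.05 in limma under any of the 13 alternatives, and the lowest adjusted p among them was between 0.144 (without OVCAR5 replicate 3) and 0.616 (without OVCAR5R replicate 2). Over all genes the calls ran from 0 without OVCAR5R replicate 3 to 29 without OVCAR5 replicate 2. The number of chaperones at an unadjusted p under 0.05 was 4 without a filter on low values and 2 to 8 with 1 library left out, and the highest number came without OVCAR5 replicate 3. The numbers without overlap were 6 higher and 2 lower under quantile normalization and 4 higher and 2 lower with a common upper quartile (DNAJC17 then overlapped in both). With 1 library left out they were 3 to 12 higher and 3 to 12 lower, both highest without OVCAR5 replicate 3. Fewer libraries overlap less often for any gene. Without OVCAR5 replicate 2, 27.4% of all genes were free of overlap, against 16.6% with all libraries, and 10.8% had an unadjusted p under 0.05 from limma. Such shares of all genes were not taken under the other alternatives, so these counts are not read as a result about the chaperones. The median log2 fold change of the chaperones was 0.0724 under quantile normalization, 0.0549 with a common upper quartile, 0.00411 with a minimum value of 10, and -0.0342 to 0.0647 with 1 library left out. That of all genes was 0.0428 under quantile normalization. With 1 library left out, the median was -0.0379 to 0.108 for the cytosolic set, -0.456 to -0.0318 for the ER set, and -0.102 to 0.225 for the mitochondrial set.

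The labels do not say whether samples of the same replicate number were paired. The correlations of same-numbered deviations were -0.00, 0.18, and -0.12, and those of unlike numbers ran from -0.19 to 0.25. Deviations from the mean of 3 libraries are tied to each other, so these values cannot settle the pairing. With the replicate block 4 chaperones had an unadjusted p under 0.05, 0 passed adjustment, and 5 of all genes did. Of the genes at this unadjusted p without the block, HSPB8 remained, DNAJC15 did not, and HSPB1, DNAJC17, and HSPA4L were added.

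The log2 fold change of HSPH1 turned to 0.0126 under quantile normalization and 0.0163 with a common upper quartile, and DNAJB12, at -0.01, also turned sign. With 1 library left out, the share of all genes that changed sign was not taken. The count that follows is therefore not read as a trait of the chaperones. In these fits, 29 of the 62 chaperones tested changed sign at least once. Their log2 fold changes ranged from -0.13 to 0.15 for HSPA9, from -0.16 to 0.57 for HSP90AA1, from -0.0768 to 0.36 for HSPE1, from -0.30 to 0.32 for HSPH1, from -0.10 to 0.24 for HSPA4, from -0.00912 to 0.22 for DNAJA1, and from -0.28 to 0.00684 for DNAJB1. They ranged from -0.17 to 0.0119 for DNAJB11, from -0.13 to 0.30 for DNAJA3, from -0.27 to 0.0175 for DNAJC19, from -0.14 to 0.76 for HSPA13, from -0.46 to 0.0208 for DNAJC4, from -0.0355 to 0.56 for HSP90AA2P, and from -0.15 to 0.22 for HSPE1-MOB4. Of the related genes and other chaperones named, the range for PFDN5 was -0.29 to 0.0743, for HSF1 -0.0739 to 0.28, for TRAP1 -0.16 to 0.38, for DNAJC2 -0.30 to 0.13, for DNAJB6 -0.25 to 0.0224, and for HSPA2 -0.14 to 0.50. The other 12 chaperones that changed sign were DNAJA4, DNAJB2, DNAJB12, DNAJC5, DNAJC6, DNAJC7, DNAJC13, DNAJC14, DNAJC18, DNAJC21, DNAJC22, and HSPB11, the widest being DNAJC6 (-0.11 to 0.63) and DNAJC18 (-0.52 to 0.17). The cause was not tested, beyond the smaller number of samples.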
